A study of Mus musculus with 3 samples.

Results

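MicroRNAs are short RNAs cut from hairpin precursors. They guide Argonaute proteins to messenger RNAs, mainly through pairing of the seed, bases 2 to 8 of the mature strand, and lower the output of those messages. The 10 genes described here are Mir375, Mir184 and Mir200b, which are known from islets, Mir155, Mir146, Mir21 and Mir34a, which are known as inducible by inflammatory or stress signals, and Mir29a, Mir23b and Mir27b, which are broadly expressed and have been studied in metabolic tissues. They were listed by symbol, with earlier results of these data known, among the 1577 genes of type miRNA in the GENCODE M1 annotation of the mouse genome build mm9, and all 10 were found. For each, the H3K4me1 enriched regions that cover the precursor or lie within 20 kb of it were collected, which gave 23 distinct regions of the 65709 in all.

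The data are a single list of genomic regions enriched for monomethylated histone H3 lysine 4 (H3K4me1), a mark of active and poised enhancers and of the flanks of promoters. ChIP-seq was done on islets of male and female CD1 mice, labelled as 8 to 12 weeks old (the study's methods name ICR mice and a narrower age range), after 4 days in culture with a low dose of the cytokines TNFα (0.16 ng/ml), IL-1β (0.25 ng/ml) and IFNγ (1.6 ng/ml). DNA from separate immunoprecipitations of islets from several animals was pooled, so there was 1 library and no replicate, and no error between replicates could be given for any value. The list holds chromosome, start and end on a 200 bp grid, with no read count or height, so the depth is unknown and a region is either listed or not. Untreated islets were not analysed here, so nothing below says what the cytokines changed, nor whether any of these microRNAs was made. Islets hold beta, alpha and delta cells together with endothelial cells and leukocytes, and the list does not tell their regions apart. A region lay within 2 kb of an annotated start of 7 of 10 islet endocrine marker genes, 1 of 5 leukocyte markers (Cd68), 2 of 3 endothelial markers (Pecam1 and Kdr) and 1 of 4 acinar and duct markers (Krt19). That distance was chosen after the values were seen, and the order of the lists depends on it. A region covered the start itself at 1 of 10 endocrine genes (Ins2), 1 of 5 leukocyte, 2 of 3 endothelial and 1 of 4 acinar and duct genes. The endocrine genes without a region within 2 kb were Gcg, Sst and Iapp. The share of all genes with a region within 2 kb was not computed. The part of each cell type in the regions near the microRNA genes was not tested.

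The mature strands below show what the loci encode and which of them share a seed with another locus. They are RefSeq sequences, written 5′ to 3′ with the seed in capitals, and each was found within the mm9 precursor of its gene. All 10 genes matched the RefSeq table, Mir21 as Mir21a and Mir146 by the miR-146a strand.
miR-27b-3p: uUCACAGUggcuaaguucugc
miR-27a-3p: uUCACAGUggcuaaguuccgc
miR-155-5p: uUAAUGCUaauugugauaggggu
miR-146a-5p: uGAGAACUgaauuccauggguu
miR-146b-5p: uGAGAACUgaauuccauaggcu
miR-21a-5p: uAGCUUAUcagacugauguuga
miR-29a-3p: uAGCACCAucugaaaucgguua
miR-29b-3p: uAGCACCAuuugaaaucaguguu
miR-29c-3p: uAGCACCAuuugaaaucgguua
miR-34a-5p: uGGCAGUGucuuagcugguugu
miR-34b-5p: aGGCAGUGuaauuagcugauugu
miR-184-3p: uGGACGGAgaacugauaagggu
miR-200b-3p: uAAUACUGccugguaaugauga
miR-200c-3p: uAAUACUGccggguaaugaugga
miR-429-3p: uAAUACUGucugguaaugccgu
miR-375-3p, miR-23b-3p and miR-34c-5p are named only. The miR-27, miR-146, miR-29, miR-34 and miR-200b strands fall into seed families with members at other loci, whereas miR-155-5p, miR-184-3p and miR-21a-5p had no other annotated gene with their seed. RefSeq also lists miR-21c with the seed of miR-21a-5p, but its gene was not found by symbol in the annotation.

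H3K4me1 regions lay directly over 6 of the 10 precursors. These were Mir375, Mir23b, Mir27b, Mir21, Mir29a and Mir200b, and each of these precursors was inside a region over its whole length. Over all 1576 miRNA genes on chromosomes 1 to 19 and X the share covered was 10.9%, and over the 529 whose symbol begins with Mir it was 15.3%. The remaining 4 precursors were not covered, and their nearest regions lay 3038 bp (Mir146), 10385 bp (Mir155), 17963 bp (Mir34a) and 22498 bp (Mir184) away. With Mir184 as the exception, 9 of the 10 genes had a region within 20 kb, beside 59.3% of all miRNA genes, 64.5% of those with a Mir symbol, and 74.6% of the 22350 protein-coding genes measured from their first transcription start. A region wider than 10 kb covered 4 of the 10 precursors, those of Mir375, Mir23b, Mir27b and Mir21, beside 1.65% of all miRNA genes and 2.27% of those with a Mir symbol. Mir23b and Mir27b are 132 bp apart and share all of their regions, so they are 1 locus rather than 2 separate observations. All of these shares are descriptions of 1 library, and no test was made of them.

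**Figure D1:**
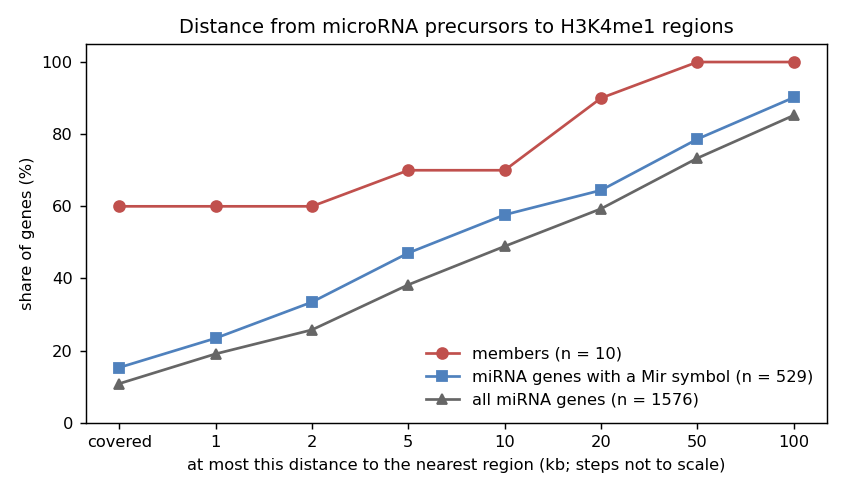
Share of genes (%, vertical axis) whose nearest H3K4me1 region lay at or within each distance in kb (horizontal axis, steps not to scale) for the 10 microRNA genes, for miRNA genes with a Mir symbol and for all miRNA genes. The line of the 10 genes starts at 60% covered and reaches 100% at 50 kb, where the other lines stand at 78.6% and 73.4%.

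The amount of marked sequence around the precursors ranged widely, from most of the surroundings at Mir23b, Mir27b and Mir21 to none at Mir184. It was measured as the enriched share of a window made of the precursor and 20 kb on each side. The share was 81.4% at Mir23b, 80.8% at Mir27b, 77.0% at Mir21, 55.7% at Mir29a, 39.4% at Mir375, 24.0% at Mir146, 22% at Mir200b, 6.74% at Mir34a, 2.62% at Mir155 and 0% at Mir184. The median of the 10 was 31.7%, beside 2.99% over all miRNA genes and 4.49% over those with a Mir symbol. The number of regions in the window had a median of 2 and ran from 0 at Mir184 to 6 at Mir29a, beside a median of 1 over all miRNA genes. More of the marked sequence lay upstream than downstream of the precursor at 7 genes, of which Mir23b and Mir27b are 1 locus, whereas Mir375 and Mir200b had more downstream. Over the 1576 miRNA genes more lay upstream at 495 and downstream at 436.

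**Figure D2:**
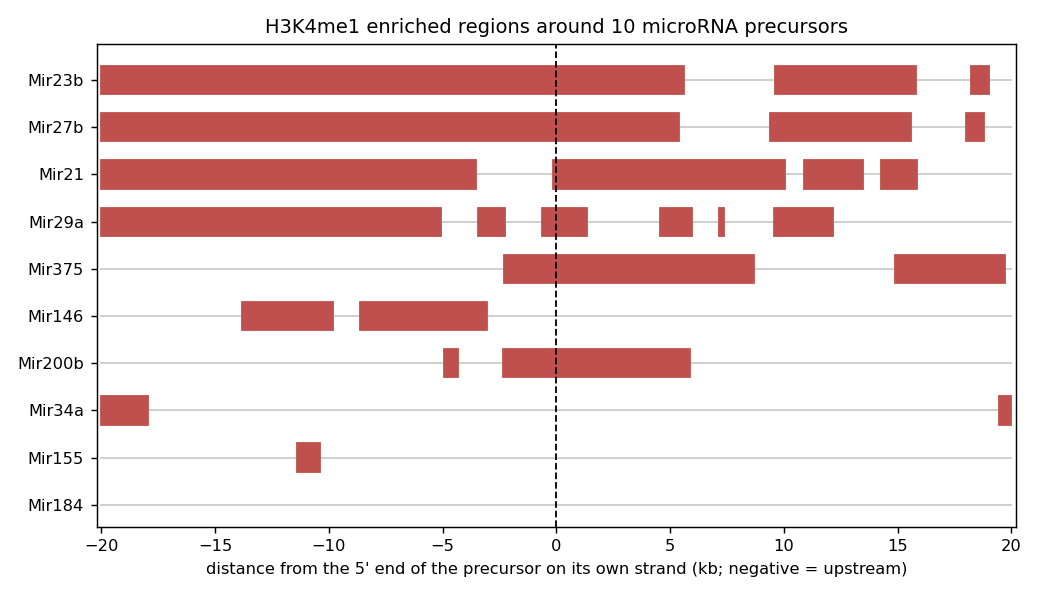
H3K4me1 enriched regions (red) from 20 kb upstream to 20 kb downstream of the 10 precursors, with the distance in kb from the 5′ end of the precursor on its own strand. Regions at Mir23b, Mir27b and Mir21 fill most of the window, Mir29a has 6 separate regions, and Mir184 has none. A region that reaches only 49 bp into the Mir155 window is too narrow to see.

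Mir375 gives rise to an abundant islet microRNA that is known for limiting insulin secretion and for supporting beta cell mass. Its precursor (mm9 chr1:74947226-74947300, minus strand) has no host gene in the annotation. It was covered by an 11 kb region, chr1:74938601-74949600, which reached 2300 bp upstream of the precursor's 5′ end and 8699 bp past it downstream. The same region covers annotated starts of Cryba2, a crystallin gene whose start is 7509 bp from the precursor, and of Gm15841, and overlaps Ccdc108. A second region of 4.8 kb lay 14826 bp downstream over the start of Fev, which encodes an ETS transcription factor of serotonergic neurons and endocrine progenitors. Most of the marked sequence around Mir375 thus lay downstream of it, 13.4 kb beside 2.3 kb upstream. Enriched sequence in its window came to 15.8 kb, an amount reached by 76 of the 1576 miRNA genes, Mir375 included.

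Mir200b belongs to the epithelial miR-200 family, which is known for repressing Zeb1 and Zeb2 and, in beta cells, for a role in apoptosis. The precursor (mm9 chr4:155429790-155429859, minus strand) overlaps Ttll10 and Gm13648 on the same strand. A single 8.2 kb region, chr4:155424001-155432200, covered it together with its cluster partners Mir200a, 696 bp away, and Mir429, and also covered an annotated start of Ttll10. It extended 2341 bp upstream of the 5′ end of Mir200b, and a 0.6 kb region lay 4342 bp upstream of the precursor. The covered Ttll10 start lies downstream of Mir200b. The starts upstream of the precursor, of Ttll10 at 3594 bp and Gm13648 at 4052 bp, were not covered. They lay 748 and 290 bp from a region. The cluster's 3 precursors had the same enriched share of 22%.

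Mir184 encodes a microRNA that is known for lowering Argonaute2 in beta cells. Its precursor (mm9 chr9:89697098-89697166, minus strand) has no host, and its nearest region, chr9:89672001-89674600, was 2.6 kb wide and lay 22498 bp downstream. Mir184 was the exception among the 10 genes, with no region in its window. Marked sequence lay farther out, since within 50 kb there were 3 regions that made up 7.2% of the window, and within 100 kb there were 9. The nearest start of a protein-coding gene was that of Ankrd34c.

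Mir155 lies in an exon of the lincRNA that is its primary transcript, and is known as strongly induced by NF-κB and AP-1 in immune cells. Neither the precursor (mm9 chr16:84714385-84714449, plus strand) nor the annotated start of the lincRNA, 1117 bp upstream of it, was covered. The start was 9268 bp from the nearest region, which is 1.0 kb wide and lies upstream of the transcript and outside any annotated gene. A second region, of 0.8 kb, lay in an exon of the mitochondrial ribosomal protein gene Mrpl39, 19952 bp downstream, and entered the window by 49 bp. The RefSeq promoter of Mir155hg, as the host is named there, was found once in mm9 at chr16:84713018-84713317, where it was 9018 bp from a region. Within 20 kb Mir155 had the least marked sequence after Mir184, and within 100 kb on each side it had the least of the 10 genes, 7.8 kb in 6 regions.

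Mir146 encodes miR-146a, which is known as induced by NF-κB and as acting on the signalling proteins Irak1 and Traf6 downstream of the IL-1 receptor. Its precursor (mm9 chr11:43187899-43187963, minus strand) has no host. Both of its regions lay upstream and none downstream, which no other of the 10 genes shows. The nearer one, chr11:43191001-43196600, was 5.6 kb wide and began 3038 bp from the precursor. The farther one was 4.0 kb wide, lay 9838 bp upstream and covered an annotated start of Gm12148. The nearest start of a protein-coding gene, that of Pttg1, was 48525 bp away, so neither region lay near an annotated coding start.

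Mir21 lies in an untranslated exon of Vmp1, an autophagy gene, and is known as induced through AP-1, STAT3 and NF-κB. Its precursor (mm9 chr11:86397569-86397660, minus strand) was covered by a 10.2 kb region, chr11:86387601-86397800, that ended 140 bp upstream of the precursor's 5′ end. A second wide region of 27.6 kb, chr11:86401201-86428800, began 3541 bp upstream, lay inside Vmp1 and covered annotated starts of its shorter transcripts. In the whole list 90 of the 65709 regions were at least that wide, itself included. The Vmp1 starts closest to the precursor, 2723 and 2836 bp upstream of it, lay in the gap between the wide regions, at 818 and 705 bp from a region edge. Trimethylation of the same lysine, the mark of active starts, was not analysed here. Smaller regions, of 2.6 and 1.6 kb, followed downstream, and the window held 30.9 kb of enriched sequence, an amount reached by 8 of 1576 miRNA genes.

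Mir34a is known as a target of p53 and, in beta cells, as raised by fatty acids and cytokines. The precursor (mm9 chr4:149442563-149442664, plus strand) has no host in this annotation. Its regions lay at the 2 ends of the window, one of 2.2 kb at chr4:149422401-149424600, 17963 bp upstream and over the start of the noncoding gene Gm13067, and one of 0.8 kb in an exon of the receptor gene Gpr157, 19337 bp downstream. Between them the precursor had no enriched sequence for 17963 bp on one side and 19337 bp on the other. At 100 kb on each side the picture differed, since 10 regions made up 23.5% of that window, more than at Mir375, whose share there was 14.9%.

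Mir29a is known for acting on collagens and, in beta cells, on the lactate transporter Mct1, and is transcribed together with Mir29b-1, 270 bp away. Its precursor (mm9 chr6:31012660-31012747, minus strand) has no host gene, and no start of a protein-coding gene was closer than that of Klf14 at 103670 bp. A 2.0 kb region, chr6:31011401-31013400, covered both precursors. Upstream stood a 1.2 kb region at 2254 bp and then a region of 83.0 kb, chr6:31017801-31100800, that began 5054 bp from the precursor. This is among the widest of the whole list, in which the maximum was 85.4 kb and 2 regions of 65709 were at least as wide as it, itself included. It overlaps the noncoding genes Gm13834, Gm13833 and Gm13835 and no protein-coding gene. Downstream there were regions of 1.4, 0.2 and 2.6 kb at 4460, 7060 and 9460 bp. With 6 regions within 20 kb Mir29a had the most of the 10, a number reached by 50 of the 1576 miRNA genes, but within 50 kb Mir21 had 8 and Mir29a 7.

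Mir23b and Mir27b are transcribed together and are known from lipid metabolism and from immune cells. Their precursors (mm9 chr13:63401780-63401876 and chr13:63402008-63402104, plus strand) lie in an intron of the aminopeptidase gene 2010111I01Rik. A 64.0 kb region, chr13:63343401-63407400, covered both and reached 58379 bp upstream of Mir23b, with 4 regions in the list at least as wide, itself included. It covers internal starts of 2010111I01Rik 27.2 and 18.3 kb upstream of Mir23b and the noncoding gene Gm16907. The first start of the host was 335.5 kb upstream of Mir23b and 948 bp from another region. Regions of 6.2 and 0.8 kb lay 9525 and 18125 bp downstream of Mir23b. The whole 20 kb upstream of either precursor was marked, and 4 miRNA genes had as much enriched sequence as Mir23b, itself included.

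**Figure D3:**
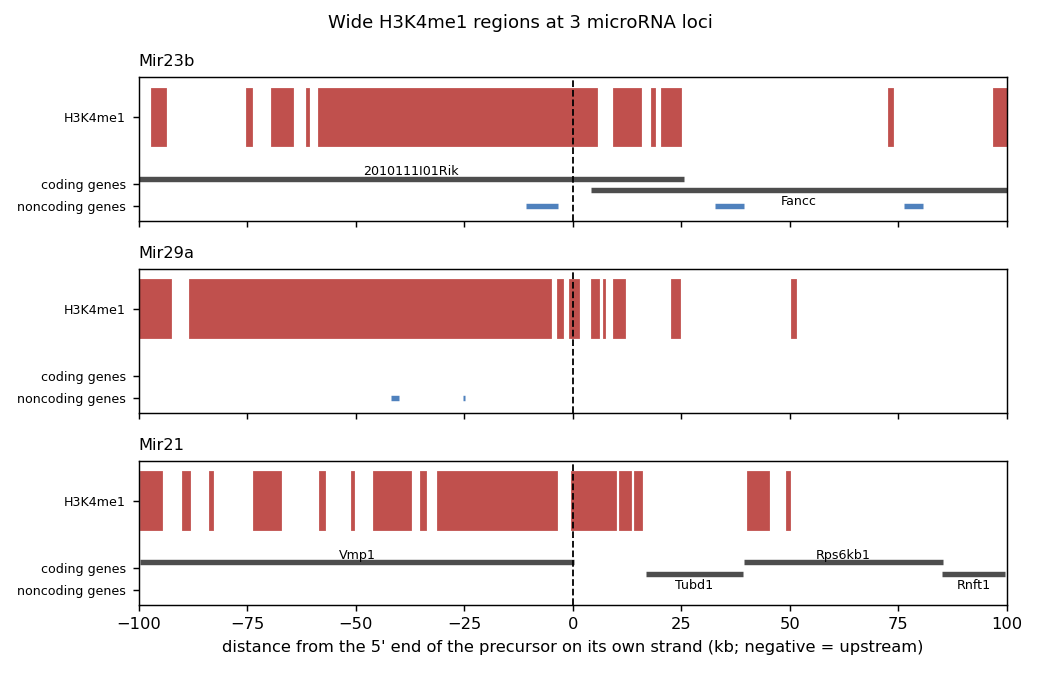
H3K4me1 enriched regions (red) within 100 kb of the precursors of Mir23b, Mir29a and Mir21, by distance in kb from the 5′ end of the precursor, above protein-coding genes (dark grey, those longer than 4 kb in view named) and lincRNA or processed transcript genes (blue). The widest region at each locus begins upstream of the precursor, and at Mir29a it lies where no protein-coding gene is drawn.

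Within 100 kb on each side of these 3 loci the enriched share was 50.4% at Mir29a, 44.7% at Mir23b and 36.1% at Mir21, and the other loci apart from Mir34a lay between 3.9% and 14.9%. The 23 regions around the 10 genes had a median width of 2600 bp and ran from 200 to 83000 bp, whereas all regions had a median of 1200 bp. Of the 23, 5 were wider than 10 kb, which is 21.7%, beside 2.01% of all regions. A wide region reaches into more windows than a narrow one, so collecting regions by distance can favour wide ones. How far this makes the difference was not tested. The 5 regions over a precursor had a median width of 10200 bp, the 8 upstream regions 3100 bp and the 10 downstream regions 1500 bp. No other gene overlapped 9 of the 23 regions, and 8 covered an annotated start of a transcript that is not a microRNA. Neither count was made over all regions, so both describe the 23 only. The median GC content of the 23 was 47.0%, beside 45.9% over all regions.

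**Figure D4:**
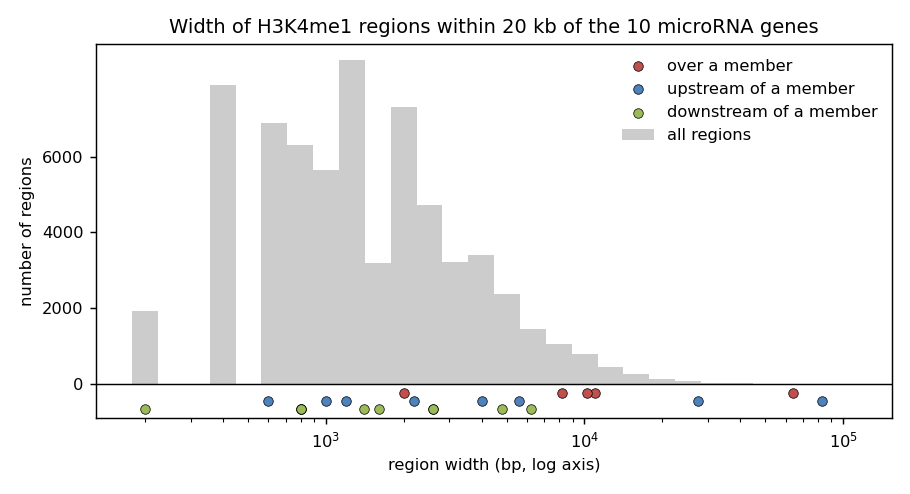
Number of H3K4me1 regions (grey bars) by width in bp on a log axis for the whole list, with the 23 regions near the 10 microRNA genes as points below the bars, coloured by whether they lie over, upstream of or downstream of a precursor. Points run from 200 to 83000 bp, and 5 lie above 10000 bp.

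Paralogous loci allow related microRNAs to be compared at different places in the genome. Most share the seed of their counterpart, but miR-141-3p has a seed other than that of miR-200b-3p, and Mir24-2 is counted as a cluster partner of Mir23a and Mir27a. The Mir23a, Mir27a and Mir24-2 cluster is the paralogue of Mir23b and Mir27b. None of its precursors was covered, the nearest region of 7.2 kb lay 4017 bp from Mir23a, and the enriched share was 21.5%, all of it upstream. Mir23b and Mir27b, with 81.4% and 80.8%, thus had more marked sequence around them than this cluster. In the miR-29 family all 4 precursors, which form 2 clusters, were covered, Mir29b-2 and Mir29c together by a 5.8 kb region in a window enriched over 26.9%, which is less than the 55.7% of Mir29a. In the miR-200 family the order was the opposite, with 39.6% and 6 regions at Mir200c and Mir141 beside 22% at Mir200b. Regions at Mir200c and Mir141 also cover starts of the coding genes Lpcat3, Phb2, Ptpn6 and Grcc10. Mir146b, in Tmem180, had 4 regions and 37.4%, beside 2 regions and 24.0% at Mir146, and like it was not covered, with its nearest region 1652 bp away. Regions at Mir146b cover starts of the coding genes Fbxl15, Psd, Cuedc2 and Tmem180. Mir34b was covered by a region of 0.4 kb that was all its window held (0.998%), and Mir34c was 186 bp from it, whereas Mir34a had more in its window but nothing near. Mir449a and Mir449c, which share the miR-34 seed, had regions at 1742 and 191 bp. Leaving out Mir449a and Mir449c, of 10 paralogous precursors, several of which share their regions, 4 were covered and 10 had a region within 20 kb, with a median enriched share of 24.2%. Over all miRNA genes 10.9% were covered and 59.3% had a region within 20 kb.

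**Figure D5:**
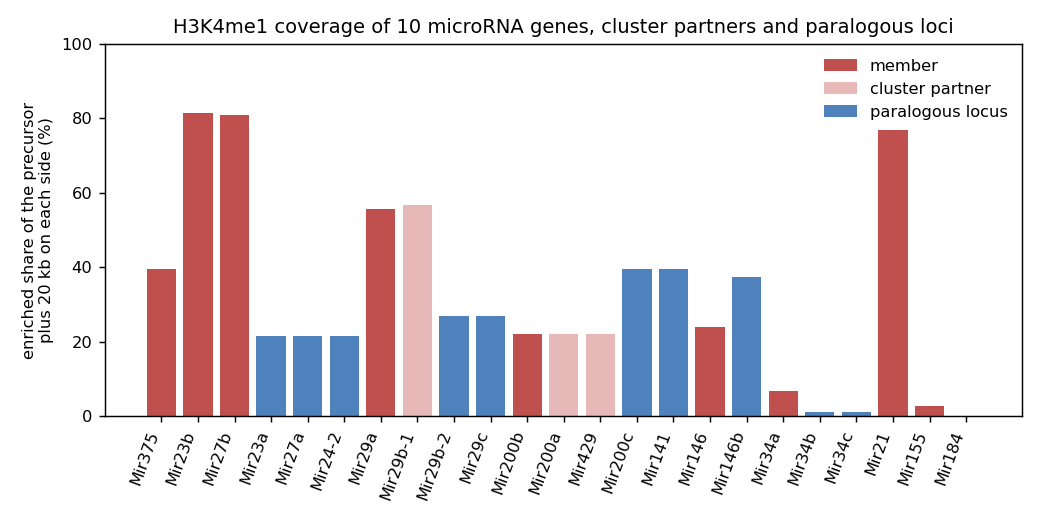
Enriched share (%) of the precursor plus 20 kb on each side for the 10 microRNA genes (red), their cluster partners (pink) and paralogous loci (blue), grouped by family. Bars run from 0% at Mir184 to 81.4% at Mir23b, and each bar is a single value without replicates.

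Lists of other microRNAs had lower median shares of marked sequence than the 31.7% of the 10 genes. Of an islet and neuroendocrine list, 14 of 20 genes were found by symbol, 3 were covered (Mir7-2, Mir7b and Mir9-2) and 12 had a region within 20 kb, with a median share of 18.5%. Of the 3 genes of miR-7, a family abundant in islets, Mir7-2 had 56.0%, Mir7b 51.7% and Mir7-1, which was not covered, 22.4%. Of an inflammation and immune cell list, 19 of 20 genes were found, 4 were covered (Mir125a, Mir132, Mir212 and Mir150) and 16 had a region within 20 kb, with a median share of 1.5%. That median is the value of 1 cluster, since Mir17, Mir18, Mir19a, Mir20a and Mir92-1 share a single region, and Mir132 and Mir212 likewise share theirs. Of a list of microRNAs known from other tissues, 21 of 22 genes were found, 1 was covered (Mir203) and 12 had a region within 20 kb, with a median share of 3.49%. Clustered genes that share regions, such as Mir302a to Mir302d, are counted singly in these lists. Over all miRNA genes 10.9% were covered and 59.3% had a region within 20 kb, with a median share of 2.99%. For those with a Mir symbol the values were 15.3%, 64.5% and 4.49%.

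The sequence of the region nearest each gene, Mir155 left out, was searched for short motifs chosen for the applied cytokines and for the islet. The search covered 300 bp at the region's midpoint on both strands. The motifs were NF-κB, STAT (TTCNNNGAA), AP-1 (TGANTCA) and Foxa (TGTTTAC), a family of islet and liver factors. Matches were few among the 8 distinct regions, and are shown in capitals in the windows of Mir34a and Mir375, which held them all, given on the plus strand of mm9.
Mir34a, chr4:149423351-149423650: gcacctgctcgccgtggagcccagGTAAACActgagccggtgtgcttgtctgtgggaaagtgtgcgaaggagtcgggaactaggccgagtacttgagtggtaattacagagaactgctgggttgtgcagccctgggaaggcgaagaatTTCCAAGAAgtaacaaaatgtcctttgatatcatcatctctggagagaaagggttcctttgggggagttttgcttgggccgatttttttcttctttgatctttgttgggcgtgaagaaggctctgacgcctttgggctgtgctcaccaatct
Mir375, chr1:74943951-74944250: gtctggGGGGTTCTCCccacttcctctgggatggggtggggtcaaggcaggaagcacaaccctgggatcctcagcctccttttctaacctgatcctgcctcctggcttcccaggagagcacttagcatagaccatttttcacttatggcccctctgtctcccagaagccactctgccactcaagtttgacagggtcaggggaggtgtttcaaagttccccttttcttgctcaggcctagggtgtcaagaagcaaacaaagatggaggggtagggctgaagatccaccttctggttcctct
The Mir34a window held a Foxa match and a STAT match, and the Mir375 window an NF-κB match. NF-κB, STAT and Foxa were thus each matched in 1 of 8 windows, and AP-1 in 0, counts that say nothing of Mir155. Among the 63712 regions of at least 300 bp the shares with a match were 5.55% for NF-κB, 9.50% for STAT, 11.4% for AP-1 and 6.20% for Foxa. The Mir155hg promoter held 0 matches, as did the 250 bp before the Vmp1 start 2836 bp upstream of Mir21, at chr11:86400497-86400746. Most promoters held none of a given motif either. Among 32534 promoter sequences the shares with a match were 8.50% for NF-κB, 8.33% for STAT, 7.79% for AP-1 and 3.66% for Foxa. A match describes letters in a window and is neither a bound site nor a cause, and a window without one says nothing about the factor.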

How the data were processed

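DNA from H3K4me1 ChIP-seq of cytokine treated islets was sequenced as 1 pooled library. According to the submitters' notes reads were mapped to mm9 with Bowtie2 2.2.1, and the study's methods name ChromHMM for calling enriched regions, with its version not given in the sources used here. The values deposited by the authors are chromosome, start and end of each region (unit other: positions on a 200 bp grid), with no count, score or p-value. Whether the list precedes the later merging and read filters of the methods is not stated.

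The 65650 regions on chromosomes 1 to 19 and X were intersected with GENCODE M1 genes in Python 3.11.15 with numpy 2.4.6 and pandas 2.3.3. All positions are 1-based. A precursor was covered when it shared at least 1 bp with a region, and distance was the gap to the nearest edge. Scripts were tested on simulated regions with known answers. Mature sequences came from RefSeq (GRCm38.p6) and 43 of 43 were found in the mm9 precursors. Named genes were the 10 genes, their cluster partners, paralogues, hosts, genes overlapping a nearby region and the nearest coding start. Mir24-1 was not analysed here, and the sequence of the region nearest Mir155 is not reported here. The genes and lists were chosen with earlier results of these data known, and the background of Mir symbols, the 2 kb marker distance and the Vmp1 window were chosen after the values were seen. Alternatives were minimum widths of 400 and 1000 bp, merging over gaps of up to 1000 bp, windows of 10 and 50 kb, and whole regions for motifs.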

Additional observations from a re-analysis of the deposited data

How the results depend on the processing

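The count of 6 covered precursors was the same with minimum region widths of 400 and 1000 bp, with merging over gaps of up to 1000 bp, with the whole precursor required inside a region and with the precursor extended by 200 bp. The count of genes with a region in the window was 7 at 10 kb and 10 at 50 kb, and the median enriched share was 47.5% and 21.4%. The median number of regions rose to 4.5 at 50 kb, where the window is larger by construction. Searching whole regions instead of 300 bp raised the number of the 8 regions with a match to 6 for NF-κB and to 7 each for STAT, AP-1 and Foxa, since the regions are up to 64.0 kb long. The share of all regions with a match rises with width. From 2000 bp, the width over Mir29a, to 5600 bp (nearest Mir146) and 10200 bp (over Mir21) it was 29.7%, 57.6% and 79.3% for NF-κB, 48.5%, 83.3% and 94.8% for STAT, 52.1%, 84.9% and 94.8% for AP-1, and 29.4%, 61.1% and 82.8% for Foxa. Mir155 and Mir34a had 0 regions within 10 kb, and with a minimum width of 1000 bp Mir155, Mir34a and Mir200b had 1 each. Merging reduced the 4 regions at Mir21 to 2, and requiring 50% of a region inside the window left Mir155 with 1. The order of the enriched shares depends on the window. Mir200b was above Mir146 at 10 kb (43.8% and 28.7%) and at 50 kb (20.6% and 12.6%). At 10 kb Mir21 (82.9%) was above Mir23b (80.1%) and Mir375 (54.8%) above Mir29a (51.2%). At 50 kb Mir375 had 22.3%, and Mir184 (7.20%) was above Mir34a (4.80%) and Mir155 (2.60%). Of the values of single genes, 119 were within 1.5 times the reported value and 21 were not.

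No paired analysis was possible because the list comes from a single pooled library, which also leaves no replicate to omit. The list gives no depth, so an unlisted stretch cannot be told apart from one below the caller's limit.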
